A study of Mus musculus with 12 samples.

Results

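The miR-26 family in the mouse heart was followed through its 2 mature guide strands, miR-26a-5p and miR-26b-5p (mmu-miR-26a-5p and mmu-miR-26b-5p on the array). They were taken by name from the 1881 miRNAs on the array, and both were detected on all 12 arrays, as were 128 miRNAs in all. MiRNAs are short RNAs that pair with messenger RNAs, mostly through the bases of the seed near their 5′ end, and lower the stability or translation of the message. The miR-26 hairpins lie within genes of small phosphatases that act on the carboxy-terminal domain of RNA polymerase II. Members of the family are known for repressing Ezh2, a histone methyltransferase, and are highly expressed in heart muscle.

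The 12 arrays came from heart muscle of male C57BL6/J mice, 1 array per mouse and 3 mice in each of 4 groups. Control mice (C) and diabetic mice (D) received vehicle. Control mice with pargyline (C + P) and diabetic mice with pargyline (D + P) received this inhibitor of monoamine oxidases at 50 mg/kg/day for 12 weeks. Diabetes was induced with streptozotocin, which destroys pancreatic beta cells, at 50 mg/kg/day over 5 days, and a glucose of at least 17 mM defined a diabetic mouse. The mice entered at 6 to 7 weeks of age and were 5 months old when hearts were taken, and no group carried a genetic change. The RNA was of whole heart muscle, in which fewer cells of a type and less RNA per cell cannot be told apart.

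Mature sequences from RefSeq (GRCm38.p6) show how alike the 2 strands are and where they part. The strand miR-26a-5p is made from the hairpin genes Mir26a-1 (chr9:119031796-119031885, within the span of Ctdspl) and Mir26a-2 (chr10:126995530-126995613, within the span of Ctdsp2), and the array signal cannot be divided between them because the mature strands are identical. The strand miR-26b-5p is made from Mir26b (chr1:74394310-74394394, within the span of Ctdsp1). All 3 hairpins lie on the plus strand, as do their host genes, and the tables used give gene spans without exons. Capitals mark the seed, bases 2 to 8 from the 5′ end.
miR-26a-5p: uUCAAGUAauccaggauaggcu
miR-26b-5p: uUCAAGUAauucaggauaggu
Of the 21 positions that both strands have, 19 are identical, and no other miRNA on the array with a RefSeq sequence shares their seed. Counted from the 5′ end, with the base of miR-26a-5p first, the substitutions are C11U and C21U, both outside the seed, and miR-26a-5p has 22 bases against 21. Guanine and cytosine make up 40.9% of miR-26a-5p and 33.3% of miR-26b-5p. How much each strand binds to probes of the other was not tested.
The other arms of these hairpins were searched to see whether a passenger strand accompanied the guide. Their sequences are set out for comparison, with the same bases in capitals.
miR-26a-1-3p: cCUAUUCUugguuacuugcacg
miR-26a-2-3p: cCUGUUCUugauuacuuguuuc
miR-26b-3p: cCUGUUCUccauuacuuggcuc
Neither miR-26a-1-3p nor miR-26a-2-3p was detected on any array, and miR-26b-3p was detected on 1 of 12, C replicate 2, with a signal of 1.99 beside a lowest detected signal of 1.73 on that array. Every comparison of levels therefore rests on the 5p strands.

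The arrays differed in brightness, which bears on every value that follows. Summed over detected miRNAs, the signal lay between 27107 and 35028 for C and between 48104 and 61254 for D, with 57895 to 89040 for C + P and 39661 to 58631 for D + P, and the number detected ran from 144 to 253 over all arrays. The mean log2 signal of 10 control features of the array was 10.3 to 10.6 for C and 11.1 to 11.2 for D, with 11.03 to 11.48 for C + P and 10.3 to 11.1 for D + P, where the lowest value was that of D + P replicate 1. C and D shared 1 slide and C + P and D + P the other, and all non-diabetic samples lay in the first row of their slide, so pargyline and slide cannot be told apart, nor can diabetes and row. The protocol text names macrophages as the RNA source although the tissue label is heart muscle. All 5 miRNAs of a cardiomyocyte list were detected on every array, while miR-122, of liver, and miR-124 and miR-9, of neurons, were detected on none. Leukocyte miRNAs made up 0.0354 to 0.197% of the summed signal.

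Scanner signals of miR-26a-5p, in arbitrary units before normalization, were 272, 223 and 254 in C, 377, 421 and 648 in C + P, 517, 431 and 353 in D, and 238, 466 and 513 in D + P. Each C array lay below every array of C + P and of D, and D + P replicate 1 alone among the treated diabetic hearts fell within the range of C. The scanner software gave these signals an error of 7.13 to 7.26%.
Scanner signals of miR-26b-5p were 38.8, 31.5 and 37.5 in C, 114, 168 and 276 in C + P, 199, 167 and 86.9 in D, and 26.2, 97.8 and 143 in D + P. The groups were ordered as for miR-26a-5p, but the steps were larger and D + P replicate 1 lay below all C arrays. The error was 7.22 to 8.89%.

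After cyclic loess, which aligns the arrays across the 128 miRNAs, the strands parted. The normalized log2 signal of miR-26a-5p was 8.70, 8.68 and 8.61 in C, 8.35, 8.35 and 8.28 in C + P, 8.52, 8.43 and 8.48 in D, and 8.64, 8.73 and 8.61 in D + P. C and D + P were highest and overlapped, D was next, and C + P was lowest, with no overlap between these steps. The normalized log2 signal of miR-26b-5p was 5.77, 5.67 and 5.73 in C, 6.70, 7.06 and 7.07 in C + P, 7.32, 7.23 and 6.53 in D, and 5.19, 6.36 and 6.79 in D + P. C lay below D and C + P, which overlapped each other, and D + P spread from below C up to the range of C + P.

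**Figure D1:**
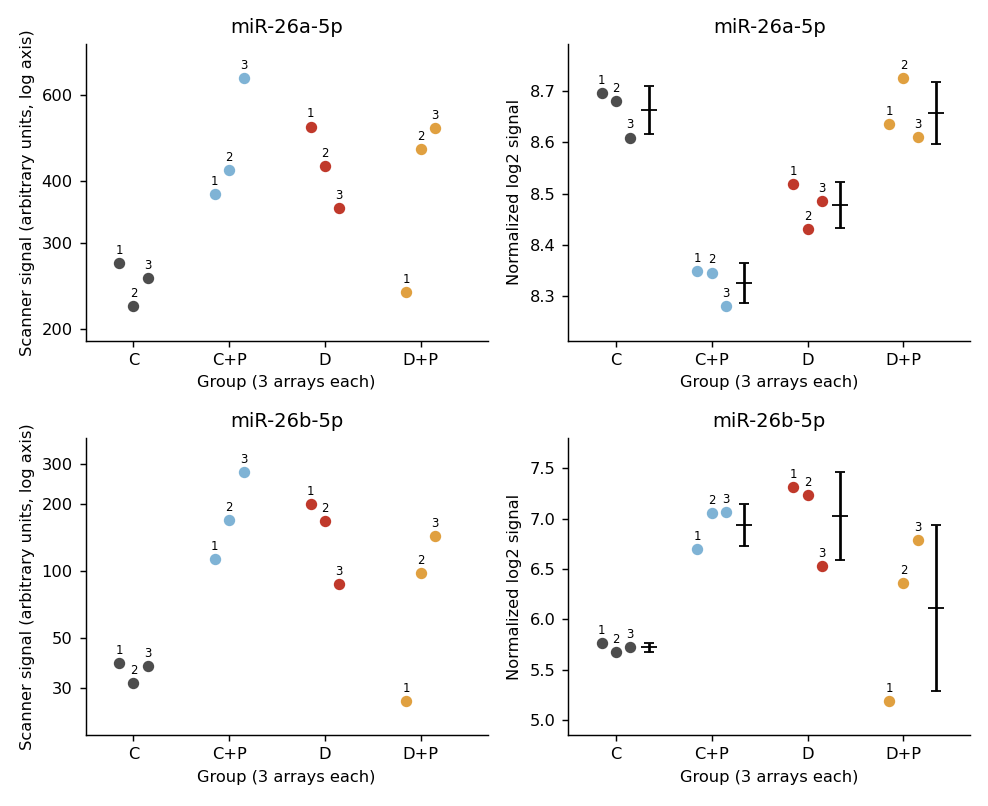
Signals of miR-26a-5p (top) and miR-26b-5p (bottom) on each array by group, as scanner signal on a log axis (left) and as normalized log2 signal (right); digits are replicate numbers and black bars are the mean ± SD of 3 arrays. Scanner signals of both strands are lower in C than in C + P and D, whereas after normalization miR-26a-5p is highest in C and D + P and miR-26b-5p stays lowest in C apart from D + P replicate 1.

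The first comparison asked what diabetes did to the family in untreated hearts. MiR-26b-5p was 2.47-fold higher in D than in C, a log2 change of 1.30 ± 0.33 (SE, n = 3 per group; 95% interval 0.58 to 2.03), which passed the test (limma, Benjamini-Hochberg adjusted p = 0.0097). This SE and those below rest on 1 spread per miRNA, fitted over all 4 groups. The SD of normalized miR-26b-5p was unequal, with 0.05 in C, 0.21 in C + P, 0.43 in D and 0.82 in D + P. MiR-26a-5p had a log2 change of -0.18 ± 0.11 (interval -0.41 to 0.04) and did not pass (limma, adjusted p = 0.15). Of the 128 miRNAs, 50% passed in this comparison, 24.2% as higher and 25.8% as lower, so that a call alone does not set miR-26b-5p apart. The number that passed, 64, was 33 without C replicate 2 and 42 without C replicate 3. The arrays of the groups did not overlap for either strand, which held for 69.5% of the miRNAs tested. Both groups lay on the same slide, and with that slide normalized and fitted alone the change of miR-26b-5p was 1.29 (limma, adjusted p = 0.0018). With the mean of the control features as a covariate it was 0.31 (limma, adjusted p = 0.73). In these features C overlapped with neither D nor C + P, so the covariate and the group split cannot be fully told apart.

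Pargyline in non-diabetic hearts was compared next, with the same 3 C arrays as the reference. MiR-26b-5p was 2.33-fold higher in C + P than in C, a log2 change of 1.22 ± 0.33 (interval 0.49 to 1.95; limma, adjusted p = 0.026). MiR-26a-5p fell by 0.34 ± 0.11 on the log2 scale (interval -0.57 to -0.11), that is 1.26-fold (limma, adjusted p = 0.030). Without normalization it was 0.91 higher and passed in that opposite direction (limma, adjusted p = 0.018). In this comparison 36.7% of the 128 miRNAs passed (18% as higher, 18.8% as lower) and 75.8% had arrays that did not overlap. The number that passed, 47, rested on single arrays. It was 3 without C replicate 2 or C + P replicate 3, 4 without C replicate 3 or C + P replicate 2, 23 without C + P replicate 1 and 79 without D + P replicate 1. With the control features as a covariate the change of miR-26b-5p was 0.12 (limma, adjusted p = 0.91) and that of miR-26a-5p was -0.32 (limma, adjusted p = 0.43). Leaving out an array ended the call of miR-26a-5p in 6 of 6 cases, and that of miR-26b-5p in 4 of 6, without C replicate 2 or 3 or without C + P replicate 2 or 3.

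Pargyline was then compared within diabetic hearts. MiR-26b-5p fell by 0.91 ± 0.33 on the log2 scale in D + P against D (interval -1.64 to -0.18), or 1.88-fold (limma, adjusted p = 0.042). The arrays overlapped, since D + P replicate 3 stood above D replicate 3. Of the 128 miRNAs, 53.9% passed in this comparison, 26.6% as higher and 27.3% as lower. The number that passed, 69, was 13 without D replicate 2, 26 without D replicate 1 and 29 without D + P replicate 1, and 0 of 128 passed in a limma fit of these groups alone (52 at an unadjusted p under 0.05) or by the methods' t-test (14 at an unadjusted p under 0.05). Without D + P replicate 1, the array with the lowest signal of miR-26b-5p, the change was -0.44 (limma, adjusted p = 0.15), and the call was also lost without D + P replicate 2, D replicate 1 or D replicate 2. With the control features as a covariate it was -0.36 (limma, adjusted p = 0.31). The call was lost under 12 of the 14 other settings tried, of which the 75th percentile of all miRNAs equals no normalization. MiR-26a-5p had a log2 change of 0.18 ± 0.11 (interval -0.05 to 0.41; limma, adjusted p = 0.15), with arrays that did not overlap, as for 56.2% of miRNAs.

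Between the groups given pargyline, neither strand passed the test for D + P against C + P. The log2 change of miR-26a-5p was 0.33 ± 0.11 (interval 0.10 to 0.56; limma, adjusted p = 0.054), and that of miR-26b-5p was -0.83 ± 0.33 (interval -1.56 to -0.10; limma, adjusted p = 0.089). In this comparison 13.3% of the 128 miRNAs passed, 5.47% as higher and 7.81% as lower, and 43% had arrays that did not overlap, as did miR-26a-5p. The number that passed, 17, was 1 without C + P replicate 2, C + P replicate 3 or D + P replicate 2, 7 without C + P replicate 1, C replicate 1 or C replicate 2, and 10 without C replicate 3, D replicate 2 or D + P replicate 1. It was 73 without D + P replicate 3, and without this array both strands passed, with 0.35 for miR-26a-5p and -1.17 for miR-26b-5p (limma, adjusted p = 0.019 and 0.011). Without D + P replicate 1 miR-26a-5p passed with 0.34 (limma, adjusted p = 0.045) and miR-26b-5p moved to -0.37.

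The interaction, the change with pargyline in diabetic hearts minus that in non-diabetic hearts, passed for both strands with opposite signs after normalization, while without it that of miR-26a-5p was -1.07. It was 0.52 ± 0.15 for miR-26a-5p (interval 0.19 to 0.84; limma, adjusted p = 0.0096) and -2.13 ± 0.47 for miR-26b-5p (interval -3.16 to -1.10; limma, adjusted p = 0.0035). It passed for 70.3% of the 128 miRNAs, 35.2% in each direction, and both values kept their call with any 1 of the 12 arrays left out. With the control features as a covariate the values were 0.49 and -0.48, neither past the test (limma, adjusted p = 0.52 and 0.74).
The pairs of groups at opposite corners of the design were then set side by side, where few miRNAs passed. In D + P against C the change was -0.0049 for miR-26a-5p (interval -0.23 to 0.22) and 0.39 for miR-26b-5p (interval -0.34 to 1.12), and 1.56% of the 128 miRNAs passed. In D against C + P the change was 0.15 for miR-26a-5p (interval -0.08 to 0.38) and 0.08 for miR-26b-5p (interval -0.64 to 0.81), and 3.12% passed. None of these 4 values passed (limma, adjusted p = 0.98, 0.61, 0.49 and 0.89). Without D + P replicate 1, miR-26b-5p was 0.84 higher in D + P than in C (limma, adjusted p = 0.019).

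The direction of miR-26a-5p depended on the scaling. Without normalization the median log2 change of the 128 miRNAs was 0.77 in D against C, 1.15 in C + P against C, -0.12 in D + P against D and -0.41 in D + P against C + P. On that scale miR-26a-5p changed by 0.78, 0.91, -0.16 and -0.29, all opposite in sign to the normalized values. Relative to the median miRNA it differed by 0.01, -0.24, -0.04 and 0.12. MiR-26b-5p kept its sign under every scaling tried in these 4 comparisons, and relative to the median miRNA it differed by 1.22, 1.13, -0.87 and -0.87.

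**Figure D2:**
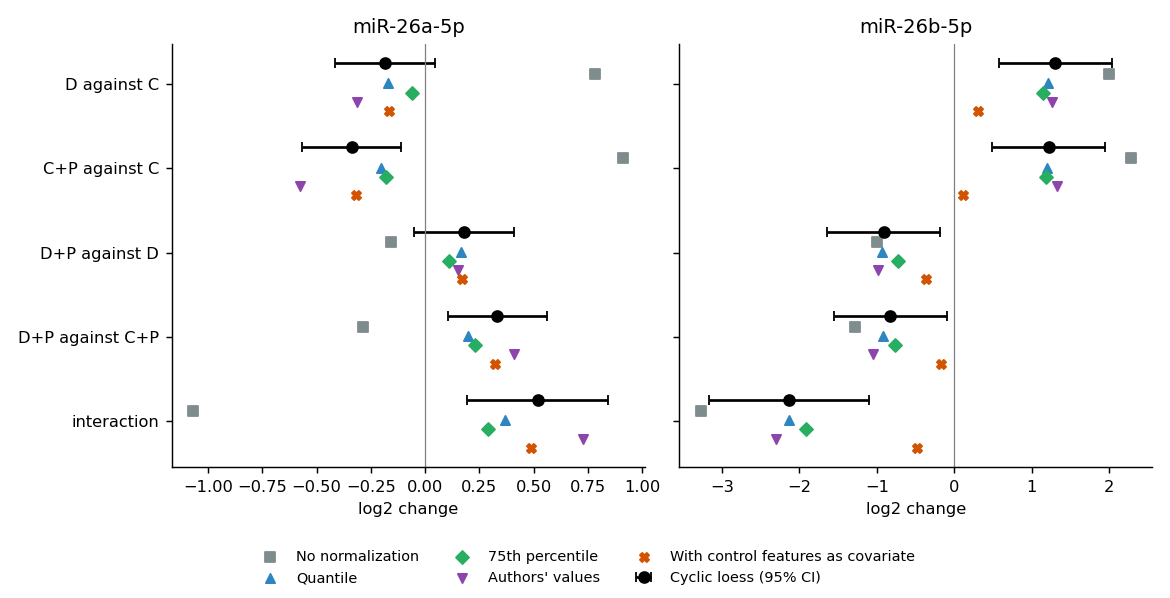
Log2 changes of miR-26a-5p (left) and miR-26b-5p (right) in 5 comparisons; black points are the values after cyclic loess with 95% confidence intervals and the other symbols are values under other scalings, the authors' normalized values, or with the control feature mean as a covariate. Without normalization all 5 changes of miR-26a-5p have the opposite sign, while those of miR-26b-5p keep theirs throughout and come nearest to 0 with the covariate.

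Whether the strands kept a constant proportion was read from the difference of their log2 signals on the same array, miR-26b-5p minus miR-26a-5p, in which a common scaling of an array cancels. Cyclic loess is not such a scaling, since it can shift bright and dim strands by different amounts. Its size carries no ratio of molecules, because the probes differ, so the values serve only for comparing groups. After normalization the difference was -2.93, -3.01 and -2.88 in C, -1.65, -1.29 and -1.21 in C + P, -1.20, -1.20 and -1.96 in D, and -3.44, -2.37 and -1.83 in D + P. C was tight and apart from C + P and D, while D + P reached from below C to within the range of D.
The groups were not alike in this difference (exact permutation test of F over 4 groups, F = 7.91, p = 0.016), and the scanner signals before normalization gave F = 7.59 (exact permutation p = 0.017). The difference rose by 1.49 from C to D and by 1.56 from C to C + P, each with p = 0.1 in a two-sided exact permutation test, the smallest that 3 against 3 arrays allow. From D to D + P it changed by -1.09, with overlapping arrays (exact permutation p = 0.2), and from C + P to D + P by -1.16 (exact permutation p = 0.1). Without D + P replicate 1 these last differences were -0.64 and -0.71. In the scanner signals of all arrays the changes were smaller in size, with 1.21 from C to D and 1.37 from C to C + P. They were -0.84 from D to D + P and -0.99 from C + P to D + P. Averaged over both slides, diabetic minus non-diabetic came to 0.16 (exact permutation within slides, p = 0.77), since the slides went in opposite directions.

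The difference between strands moved with the brightness of the array. Across the 12 arrays the difference in scanner log2 signal correlated with the mean log2 signal of the control features (Pearson r = 0.94, permutation p = 1e-05, the smallest that 100000 permutations give, adjusted p = 2e-05; Spearman rho = 0.85, permutation p = 0.00084, adjusted p = 0.0011), and without the 2 arrays farthest from the median r was 0.90. Within slides, with 6 arrays each, r was 0.93 (exact permutation p = 0.038) and 0.94 (exact permutation p = 0.0069). With the summed signal r was 0.87 (permutation p = 0.00015, adjusted p = 2e-04; rho = 0.90, permutation p = 0.00014, adjusted p = 0.00028), 0.88 without the 2 farthest arrays, and 0.95 and 0.91 within slides. D + P replicate 1 shared the low control signal of the C arrays, 10.3, and had the most negative difference. What part this has in the group differences was not tested, and the control features themselves differed between groups. The permutations shuffled arrays across groups, so the p-values carry these differences too.

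**Figure D3:**
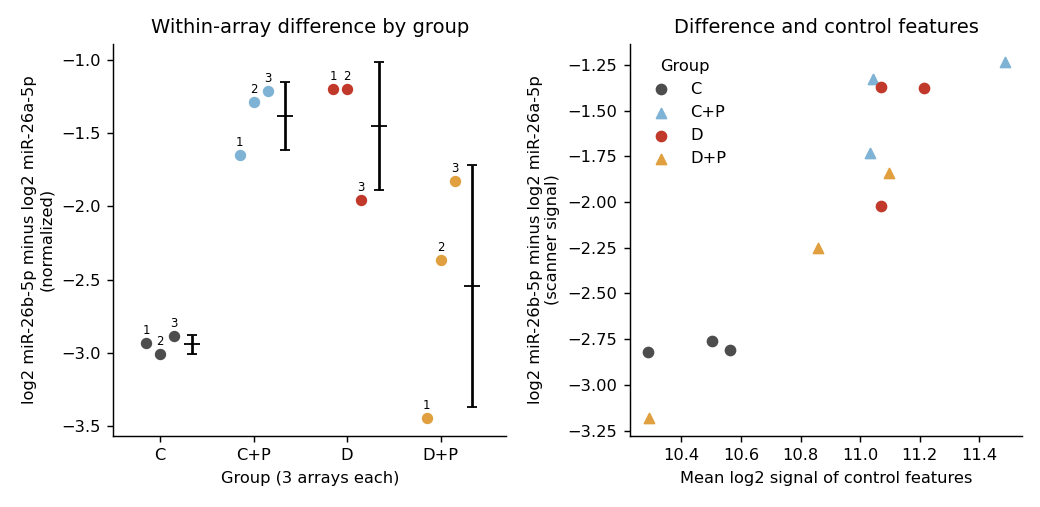
Log2 signal of miR-26b-5p minus that of miR-26a-5p on each array: by group after normalization (left; digits are replicate numbers, black bars are the mean ± SD of 3 arrays) and as scanner signal against the mean log2 signal of 10 control features (right; circles and triangles are the different slides). The difference lies near -3 in C and at higher values in D and C + P, and rises with the control features in both slides.

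The strands were also compared with each other over the 12 arrays, 1 of 4 such relations computed. Normalized values of miR-26a-5p and miR-26b-5p correlated with r = -0.69 (permutation p = 0.016, adjusted p = 0.016) and rho = -0.66 (permutation p = 0.024, adjusted p = 0.024), r being -0.62 without the 2 farthest arrays (permutation p = 0.057) and -0.87 and -0.63 within slides. The scanner log2 signals gave r = 0.96 (permutation p = 1e-05, adjusted p = 2e-05) and rho = 0.91 (permutation p = 0.00012, adjusted p = 0.00028), 0.93 without the 2 farthest arrays, and 0.99 and 0.93 within slides. The sign of the relation therefore turned with normalization, and on the scanner scale the brightness common to an array enters both values. The permutations shuffled arrays across groups, whose levels differ, so these p-values carry the group differences too.

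The miRNAs with patterns most like each strand were different. By Pearson r over the 12 arrays among 127 others, a description for which no test was made, miR-26a-5p was nearest to miR-30d-5p (0.85), miR-378a-3p (0.84), miR-3102-5p (0.84), miR-378d (0.83) and miR-30a-5p (0.81). MiR-26b-5p stood at place 111 of 127 in that order. All 5 were chosen for following miR-26a-5p over the same arrays, which largely fixes how they change. They fell in C + P against C, with log2 changes of -0.58 to -0.75, beside 18.8% of all miRNAs called lower. In D against C, miR-378a-3p, miR-378d and miR-30a-5p fell, with -0.53, -0.49 and -0.52 (limma), beside 25.8% of all called lower. MiR-378a is encoded in Ppargc1b, the gene of a coactivator of mitochondrial biogenesis.
MiR-26b-5p was nearest to let-7f-5p (0.98), miR-322-5p (0.98), miR-199a-3p (0.98), miR-30b-5p (0.96) and miR-1a-3p (0.96), the last of which is the abundant muscle miRNA. These 5 were likewise chosen for following miR-26b-5p, so their calls are a description beside the 24.2% and 18% of all miRNAs called higher. They rose in both D against C, with log2 changes of 0.71 to 1.32, and C + P against C, with 0.65 to 1.48, which share the C arrays. In D + P against D, let-7f-5p, miR-322-5p, miR-199a-3p and miR-1a-3p fell, by 0.91, 0.90, 0.80 and 0.71 on the log2 scale. MiR-30b-5p had -0.43 and did not pass, where 27.3% of all miRNAs were called lower. Marker miRNAs of other cells went in several directions. Of 3 fibroblast miRNAs tested out of 4, 2 rose in D against C, miR-199a-3p and miR-199a-5p, with a median of 0.65 for the list against 0.02 for all 128, and miR-21a-5p had 0.10, where 24.2% of all miRNAs were called higher. In C + P against C 2 rose, beside 18% of all, and 2 fell in each of the comparisons of D + P with D and with C + P, beside 27.3% and 7.81%. Of 3 leukocyte miRNAs tested out of 6, 1 rose in D against C, miR-223-3p with 1.03, and 2 rose in C + P against C, beside 24.2% and 18% of all. All 3 fell in D + P against D, with a median of -1.09 against -0.09, and in D + P against C + P, with a median of -1.68 against 0.02. There, 27.3% and 7.81% of all miRNAs were called lower. Of 5 cardiomyocyte miRNAs, miR-1a-3p rose in D against C and miR-208a-3p fell, with 1.32 and -0.78, and the other three did not pass. Of 2 smooth muscle miRNAs tested out of 3, miR-143-3p rose in D against C with 0.47 and miR-145a-5p had 0.38. The endothelial miR-126a-3p, the 1 tested of 4, had 0.20 and did not pass. Of 3 erythroid miRNAs, miR-144-3p fell with -0.57, and miR-486a-5p and miR-451a had -0.21 and -0.13. These calls of muscle and erythroid miRNAs in D against C stand beside 24.2% of all called higher and 25.8% lower. In C + P against C, miR-1a-3p (1.48) and miR-143-3p (0.64) rose and miR-486a-5p (-0.85) fell, beside 18% and 18.8% of all. In D + P against D, miR-144-3p (0.47) rose and miR-1a-3p (-0.71) and miR-499-5p (-0.48) fell, beside 26.6% and 27.3%. In D + P against C + P, miR-486a-5p (0.76) rose and miR-1a-3p (-0.87) and miR-499-5p (-0.79) fell, beside 5.47% and 7.81%. The rest of these muscle, endothelial and erythroid miRNAs did not pass there. What part these cells have in the miR-26 values was not tested.

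Other miRNAs that share a seed showed how far such strands parted on these arrays. Of the 128 miRNAs, 108 had a sequence in the RefSeq table, and these held 51 pairs with the same bases 2 to 8, from 13 seeds, many with members in common. Strands not matched there formed no pair, so the counts and correlations of pairs hold only for matched strands. Among those left out were miR-30b-5p and miR-30d-5p of the miR-30 family, with log2 changes of -0.37 and 0.85 in D + P against C + P. For each pair the log2 signal of the strand with less guanine and cytosine was set against the other on the same array (for strands of equal content, in a fixed order). In D against C the difference of the miR-26 pair moved by 1.49, and 1 of the 50 other pairs moved at least as far, with a median size of 0.55. In C + P against C it moved by 1.56, and again 1 of 50 moved at least as far, with a median size of 0.48. In D + P against D it moved by -1.09, a size reached by 2 of 50, and in D + P against C + P by -1.16, reached by 1 of 50. Over the 12 arrays, 13 of the 50 other pairs correlated negatively, 2 of them more so than the miR-26 pair, and their median r was 0.67.
The pair that moved farther in D against C was miR-15b-5p and miR-497a-5p, whose difference changed by 1.83. It is shown because, as in the miR-26 pair, the strands have the same seed and differ in bases beyond it. Unlike the miR-26 strands, they also differ in the base ahead of the seed.
miR-15b-5p: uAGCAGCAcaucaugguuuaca
miR-497a-5p: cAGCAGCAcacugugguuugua
The normalized log2 signal of miR-15b-5p was 4.03, 3.16 and 3.34 in C and 5.46, 5.49 and 5.05 in D, while that of miR-497a-5p was 5.90, 5.77 and 5.65 in C and 5.69, 5.86 and 5.75 in D. As in the miR-26 pair, the strand with less guanine and cytosine, 40.9% against 50.0%, was the one that was higher in D. Among the 40 other pairs of unequal content, that strand was the more raised in 30 for D against C and 32 for C + P against C, and the more lowered in 30 for D + P against D and 32 for D + P against C + P.
Across the 108 miRNAs, which are not independent, the content of guanine and cytosine correlated with the log2 change with rho = -0.52 for D against C and -0.49 for C + P against C, and with rho = 0.55 for D + P against D and 0.53 for D + P against C + P. The 41 miRNAs of lowest content, up to 45.5%, had a median change of 0.32 in D against C, and the 36 of highest content, from 56.1%, had -0.53. MiR-26b-5p, at 33.3%, was among the lowest of all, with 2 miRNAs below it, and miR-26a-5p, at 40.9%, had 15 below it. What part base composition has in the miR-26 difference was not tested.

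**Figure D4:**
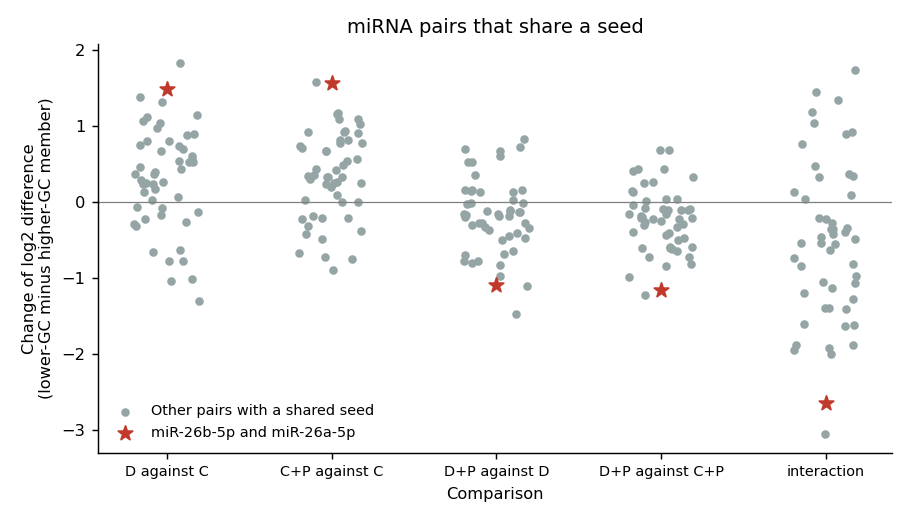
Change of the log2 difference between 2 miRNAs that share bases 2 to 8, in 5 comparisons, taken as the strand with less guanine and cytosine (GC) minus the other; the star is miR-26b-5p minus miR-26a-5p and grey points are the 50 other pairs, spread sideways for visibility. The miR-26 pair lies near the upper edge in D against C and C + P against C and near the lower edge in the comparisons of D + P and in the interaction.

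The miRNAs encoded in introns of other protein-coding genes were described as a list, since the miR-26 hairpins lie within the spans of such genes. Of 29 listed, 18 were tested. In D against C, 8 rose and 2 fell, with a median of 0.31 against 0.02 for all 128. The total is close to the 50% of all miRNAs that passed. By direction the list lay more to the higher side, where 24.2% of all were called higher and 25.8% lower. The largest changes among those called were miR-15b-5p (1.82 ± 0.40), encoded in Smc4, miR-139-5p (1.13 ± 0.39), encoded in Pde2a, miR-208a-3p (-0.78 ± 0.18), encoded in Myh6, the gene of a cardiac myosin heavy chain, and miR-107-3p (0.75 ± 0.19), encoded in a pantothenate kinase gene. In D + P against D, 1 rose and 10 fell, with a median of -0.47 against -0.09, where 26.6% of all miRNAs were called higher and 27.3% lower. In C + P against C, 2 rose and 1 fell, where 36.7% of all passed, and in D + P against C + P, 1 rose and 1 fell, where 13.3% passed.
Strands of 1 hairpin did not always keep together in this list. In D against C, miR-378a-5p rose by 0.57 ± 0.14 and miR-378a-3p fell by 0.53 ± 0.19 on the log2 scale, and miR-30e-3p rose by 0.37 ± 0.11 while miR-30e-5p had -0.28 ± 0.13 and did not pass.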

How the data were processed

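For each array the authors deposited, per the file headers, a 1-colour (Cy3) intensity for each of 1881 miRNAs from the scanner's feature extraction software, its error and a detection flag. These intensities were not normalized between arrays, and an undetected miRNA was written as 0.1. A deposited table of the authors' normalized intensities covers 209 miRNAs after a detection filter and cyclic loess. Its values are on a linear scale (column medians 15.9 to 31.4, Spearman rho of 0.854 to 0.999 with the scanner intensity), and it served as an alternative. The methods give 100 ng of RNA per labeling and the labels 200 ng.

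The 128 miRNAs detected on all 12 arrays were log2 transformed, normalized by cyclic loess (span 0.7, 3 iterations) and fitted over the 4 groups with lmFit and eBayes (limma 3.58.1, R 4.3.3). P-values were adjusted by Benjamini-Hochberg over the 128, with a threshold of 0.05. Groups came from the titles, in which a number marks a replicate, taken as a mouse because the paper describes biological replicates. With 1 array per mouse, p-values measure the spread between arrays. Mouse, labeling and array brightness cannot be told apart in that spread. The number of arrays limits the precision. The difference between strands was tested by exact permutation, and relations by 100000 permutations (exact within slides). The members and lists were chosen with earlier results of these data known. The miRNAs named are the members, the other arms of their hairpins, the 5 with the highest Pearson r to each, members of the lists (up to 4 examples, by size of change among those called, otherwise in list order), and, chosen after their values were seen, miR-497a-5p and both arms of miR-378a and miR-30e. Sequences and positions are from RefSeq tables of GRCm38.p6, in which 1608 of the 1881 names matched. The fit was tested on simulated data. The alternatives were other scalings, the authors' values, a wider filter (209 miRNAs), 16 added before log2, each slide or pair of groups alone, the replicate number as a block, a trend on intensity, the control features as a covariate, the methods' t-test, Holm adjustment, and leaving out each array. Holm adjustment of the methods' t-test, the scalings of the relation between strands and those of D + P against C and D against C + P were added after seeing the data. The mRNA arrays of the study were not analysed here, and 1 list of miRNAs is not reported here.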

Additional observations from a re-analysis of the deposited data

Results flagged for a closer look

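The change with pargyline differed between diabetic and non-diabetic hearts by 0.52 for miR-26a-5p and by -2.13 for miR-26b-5p on the log2 scale, each by a test of the interaction (limma, adjusted p = 0.0096 and 0.0035), as for 70.3% of the 128 miRNAs tested. Without normalization the value of miR-26a-5p was -1.069. With the control features as a covariate the values were 0.487 and -0.478, and neither passed (limma, adjusted p = 0.52 and 0.74).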

How the results depend on the processing

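The direction of miR-26b-5p held under every alternative in each pairwise comparison of D or C + P with C and of D + P with D or C + P, and in the interaction. MiR-26a-5p reversed in all of them without normalization. It gave 0.783 in D against C, 0.914 in C + P against C (limma, adjusted p = 0.018), -0.155 in D + P against D, -0.286 in D + P against C + P and -1.069 for the interaction. Scaling to the 75th percentile of all miRNAs gave equal values and is no separate scaling. At most 253 of the 1881 miRNAs were detected on an array, so that percentile was the 0.1 written for an undetected miRNA. The r between strands was 0.957 without normalization and -0.801 with the authors' values (permutation p = 0.0027). It was -0.524 with quantile normalization and -0.300 after scaling to the 75th percentile of the 128 tested miRNAs, this last pair of values without a call. The change of miR-26b-5p in D + P against D lost its call with -0.936 (quantile), -0.726 (that percentile), -0.992 (no normalization or all-miRNA percentile), -0.896 (wider filter), -0.979 (authors' values), -0.361 (control covariate), and, at an unmoved -0.913, with Holm, with the pair of groups alone and with the methods' t-test under Benjamini-Hochberg or Holm. With the replicate number as a block it was also -0.913 (limma, adjusted p = 0.05001), and miR-26a-5p in C + P against C lost its call at -0.338 (limma, adjusted p = 0.052). The block changed no other call, and only 4 of 18 same-number pairs of arrays had r over 0.1 (-0.37 to 0.49) with 3 of 12 arrays nearest to their own number, so the numbers, which mark different mice, were not taken as pairs. MiR-26a-5p in C + P against C also lost its call with -0.205 (quantile), -0.181 (percentile of the 128), -0.354 (wider filter), -0.318 (covariate) and -0.338 (Holm, and the methods' t-test with Holm). MiR-26b-5p lost its call in D against C with 0.306 (covariate), and at 1.305 with Holm and with the methods' t-test (Benjamini-Hochberg or Holm), and in C + P against C with 0.117 (covariate) and at 1.22 with Holm in either test. The interactions lost theirs with the covariate (0.487 and -0.478) and Holm (0.518 and -2.133), and that of miR-26a-5p with the percentile of the 128 (0.291). Calls were gained for miR-26a-5p in D against C by that t-test under Benjamini-Hochberg (-0.185), and in D + P against C + P with 16 added (0.291) or an intensity trend (0.333). With 1 array left out, miR-26a-5p ranged from -0.218 to -0.151 in D against C, -0.374 to -0.311 in C + P against C, 0.148 to 0.200 in D + P against D and 0.301 to 0.354 in D + P against C + P, and miR-26b-5p from 1.17 to 1.565, 1.152 to 1.339, -1.252 to -0.437 and -1.166 to -0.370. The difference between strands over 4 groups kept F between 5.789 and 16.4 with p at most 0.038 (exact permutation), and its diabetic minus non-diabetic value within slides ran from -0.015, reversed without D + P replicate 3, to 0.383. The small changes in D + P against C and D against C + P turned readily. MiR-26a-5p in D + P against C gave 0.050 (percentile of the 128), 0.628 (no normalization or all-miRNA percentile), 0.005 (wider filter), 0.003 (covariate) and -0.036 to 0.019 with an array left out, 0.011 of these without C replicate 1, and in D against C + P it gave -0.131 without normalization. MiR-26b-5p in D against C + P gave -0.037, -0.289 and -0.065 (percentile of the 128, no normalization or all-miRNA percentile, authors' values) and -0.050 to 0.336 with an array left out, among them -0.033 without C + P replicate 1 and -0.004 without D replicate 2, and in D + P against C -0.055 with the covariate. Apart from the settings that leave values unmoved by construction, the cause of these shifts was not tested. The 3 arrays per group and the confounding of slide with pargyline limit all comparisons, and array signals give no number of molecules.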
